A study of Mus musculus with 96 samples.

Results

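The SOX17-dominated sites at day 4 are GATA6 binding regions at which the SOX17 signal exceeded the GATA6 signal by a wide margin after 4 days of GATA6 induction. They were chosen by the measured values themselves: a region was taken when SOX17 reached at least 4 RPM (reads in the region, scaled to the size of the library) at day 4 and the ratio of SOX17 to GATA6 RPM at day 4 was at least 2.5. This rule selected 300 of the 42403 regions of the deposited table, the ratio alone being reached by 595 (1.4%). For comparison, 6984 regions met the same SOX17 minimum with a lower ratio and are called shared regions, and 84 regions with at least 4 RPM of GATA6 and at least 2.5 times as much GATA6 as SOX17 are called GATA6-dominated, 6 of which are also shared regions. Every row of the table is a GATA6 peak, so that SOX17 sites without a GATA6 peak were not measured here.

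The data are ChIP-seq profiles (sequencing of the DNA that an antibody to a crosslinked factor pulls down) of GATA6, SOX17, OCT4, SOX2 and ESRRB, with input chromatin sequenced without antibody. The cells were KH2 mouse embryonic stem (ES) cells (C57BL/6 x 129/Sv) carrying a doxycycline (Dox)-inducible cassette for HA-tagged GATA6, grown on mitomycin C-inactivated feeders that were removed by adsorption before fixation. They were profiled without Dox (day 0) and after 8 h, 16 h, 1, 2 and 4 days with 1 µg/mL Dox, and at day 2 of Dox after a control (siCTL) or an Oct4 (siOCT4) siRNA, the latter experiments having been done in a single clone. XEN cells, a line of the extra-embryonic endoderm (line X10, strain CD1, untreated), were profiled for all factors but ESRRB, and since they differ from the ES cells in strain as well as in lineage, both differences cannot be told apart. The table gives 1 value per condition, pooled over its libraries (2 for SOX17 and 3 for GATA6 at day 4 by the labels). No replicate spread can be given for any value, no test between conditions was possible and no p-value is reported. All counts and shares below are descriptions of regions.

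GATA6 is a zinc finger factor that directs cells of the early embryo to the primitive endoderm, the lineage of the yolk sac. SOX17 is an HMG box factor of the same lineage, switched on downstream of GATA6, and binds the minor groove of DNA over a short sequence with the core ATTGT. OCT4, SOX2 and ESRRB are factors of the pluripotent state, and OCT4 can pair with SOX2 or with SOX17 on composite DNA elements in which the SOX and the OCT sequence lie side by side.

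The strongest members illustrate the kind of sequence involved. Printed here are the best SOX17 motifs of 3 of the members with the most SOX17 at day 4 and of 3 of those with the highest ratio, read from the mm10 genome 5′ to 3′ on the strand of the motif. The capitals mark the motif as located by the authors, and the small letters 10 bases on either side.
Fbxl19 start (chr7:127745480-127745508, + strand): cccgctcactTCCATTGTCtcgacagaag
Cdh26 neighbourhood (chr2:178662669-178662697, + strand): taaaccatgaCTCATTGTCcaagtgtgtc
Fth1 neighbourhood (chr19:9940902-9940930, + strand): tgctgggattACCATTGTGagcctccatg
Nbr1 intron (chr11:101568711-101568739, + strand): ttttaagcttCCCATTGTCttccaagctg
Snx11 neighbourhood (chr11:96760284-96760312, - strand): ctgaacaataCCCATTGTTcttacctgtg
Tspan14 intron (chr14:40956344-40956372, - strand): gctgctgtagCCCATTGTGccttgtggag

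All 6 hold CATTGT. Among the members, 283 of 300 had a SOX17 motif, and in 271 of these the motif contained ATTGT.

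At day 4 the members ranged from 4.05 to 47.1 RPM of SOX17 with a median of 7.88, and from 0.781 to 13.5 RPM of GATA6 with a median of 2.55. Their ratio had a median of 2.94 and reached 9.07. These values chose the members and are given as a description. The regions were narrow, with a median width of 522 bases against 931 in shared regions and 525 over all regions. Per kb of region width, the median SOX17 signal was 16.4 RPM in members, 8.35 in shared regions and 2.21 over all regions, and the median GATA6 signal was 5.29, 7.21 and 2.68 RPM. These medians do not hold for each member: the lowest GATA6 value, 0.781 RPM, was under the median of all regions, 1.29 RPM, and the lowest SOX17 signal per kb, 4.68 RPM, was under the median of shared regions. Different antibodies were used for both factors, so that the ratio ranks regions but does not measure how many molecules of each were bound.

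**Figure D1:**
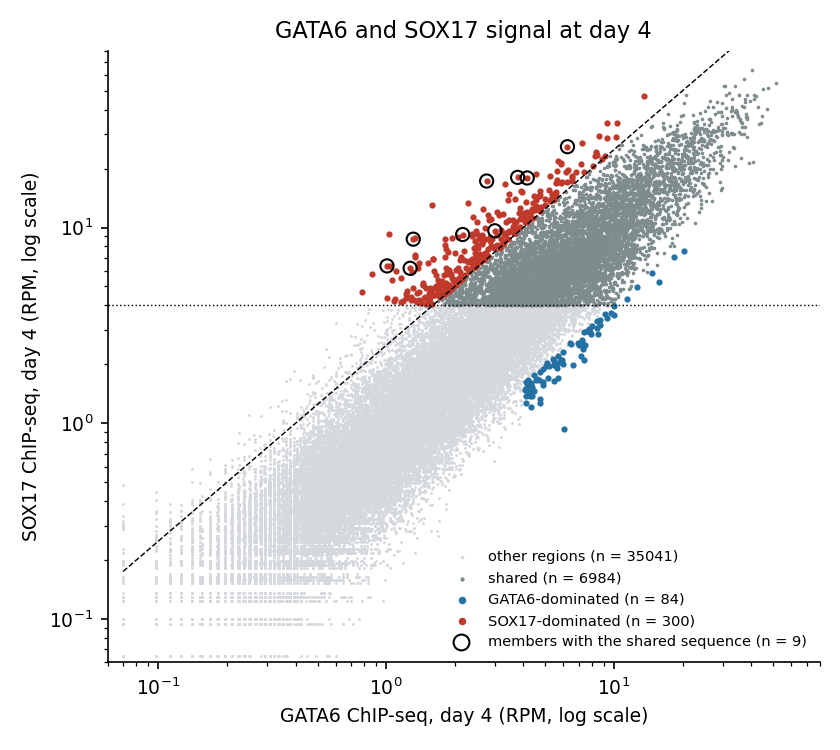
SOX17 against GATA6 ChIP-seq signal at day 4, both in RPM on log axes, with 1 point per region. The dotted line marks 4 RPM of SOX17 and the dashed line a ratio of 2.5. The 300 SOX17-dominated regions lie above both lines and continue the cloud of shared regions without a gap, and 9 of them that share a sequence are circled.

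The threshold cut through a continuous distribution. Just inside it, a region at chr11:19747460-19748222 had 7.88 RPM of SOX17 and 3.15 RPM of GATA6, a ratio of 2.501, and just outside it a region at chr1:35115500-35116128 had 6.75 and 2.71 RPM, a ratio of 2.49. Likewise, the member with the least SOX17 (chr6:34887199-34887527) had 4.05 RPM, while a region with a ratio of 2.56 (chr11:65559769-65560287) was left out with 3.98 RPM. The steps between low values give 2 depths for each of these columns, from 11780506 to 18038169 reads, although 3 GATA6 libraries are labelled at day 4. With these depths, the SOX17 value of a member rested on the equivalent of 125 to 1460 reads and the GATA6 value on 22.3 to 385. The 95% interval of the ratio, which covers counting error only, stayed at or above 2.5 in 99 of the 300 members and above 1.5 in all 300. Of the shared regions, 491 (7.03%) had an interval that reached 2.5.

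The member with the most SOX17 lay at chr7:127745150-127746546, over the start of Fbxl19, a gene of a CpG-binding F-box protein, with its midpoint 0.062 kb from the transcription start in a UTR. In the order day 0, 8 h, 16 h, day 1, day 2 and day 4, which holds for every series of 6 values given here, SOX17 was 4.64, 3.75, 6.20, 19.9, 30.04 and 47.1 RPM, and it was 50.5 RPM in XEN cells. GATA6 was 1.80, 6.31, 11.3, 7.87, 10.5 and 13.5 RPM, and 18.2 RPM in XEN cells. This promoter was accessible in ES cells and belonged to the Early&Constant class of GATA6 binding, which makes it unlike most members.

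Next came a region at chr2:178662368-178662987, intergenic and 232 kb from the nearest start, that of the cadherin gene Cdh26. SOX17 there was 0.414, 0.269, 0.800, 7.24, 15.3 and 34.4 RPM, and 9.59 in XEN cells. GATA6 was 0.653, 0.326, 0.698, 2.01, 4.001 and 9.29 RPM, and 4.19 in XEN cells. The region was closed in ES cells, and both factors had less signal in XEN cells than at day 4.

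At chr19:9940675-9941542, 39.5 kb from Fth1, which encodes the ferritin heavy chain, SOX17 was 1.36, 0.850, 3.25, 18.8, 29.6 and 34.1 RPM, so already high at day 1, and 34.5 in XEN cells. GATA6 was 0.817, 0.716, 2.91, 5.46, 6.16 and 10.3 RPM, and 13.3 in XEN cells. In contrast to the Cdh26 region, SOX17 and GATA6 were at or above their day 4 level in XEN cells.

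Gene lists covered 12 genes of endoderm receptors, endocytosis and transport, 11 genes of the basement membrane, 11 pluripotency genes and 10 SOX and WNT target genes. No member lay nearest to and within 100 kb of any of their starts. By comparison, 31 shared regions did so for the receptor genes, 45 for the basement membrane genes, 17 for the pluripotency genes and 6 for the SOX and WNT genes. Over all 42403 regions the counts were 77, 98, 97 and 42, so that such regions are few in the whole table too, and nothing is read from their absence among 300 members.

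Further strong members were in introns of Mthfd1l, a mitochondrial folate enzyme (chr10:4105500-4106511, 29.1 RPM of SOX17 at day 4), of the cell cycle inhibitor Rb1 (chr14:73253105-73254121, 28.6 RPM) and of the tetraspanin gene Tspan9 (chr6:128142082-128142825, 27.1 RPM). The Mthfd1l region was the late one of these, with 2.20, 1.59, 1.15, 4.37, 6.27 and 29.1 RPM of SOX17, and 22.7 in XEN cells. In the Rb1 intron, SOX17 was 1.63, 1.39, 1.75, 11.6, 15.9 and 28.6 RPM, and 25.02 in XEN cells. In the Tspan9 intron it was 2.51, 1.73, 1.65, 7.14, 14.7 and 27.1 RPM, and 12.9 in XEN cells. All 3 had less SOX17 in XEN cells than at day 4.

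An intergenic region 80.1 kb from Gm525 (chr11:89153418-89154513) had a late rise as well, with 1.58, 1.04, 1.60, 3.24, 4.85 and 23.5 RPM of SOX17, and 17.3 in XEN cells. The intron of Rims1, a gene of the synapse (chr1:22466586-22467422), stood out by its GATA6 course of 0.817, 11.1, 4.63, 5.71, 7.92 and 8.36 RPM. OCT4 and SOX2 were bound there before induction, at 8.47 and 15.1 RPM, and SOX17 was 4.01, 2.92, 2.55, 13.3, 17.1 and 24.4 RPM, and 17.4 in XEN cells.

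The highest ratios came from small regions with little GATA6. In an intron of Nbr1, an autophagy receptor (chr11:101568590-101568820), SOX17 was 9.30 RPM and GATA6 1.02 RPM at day 4, a ratio of 9.07 with a counting interval of 6.23 to 13.9. SOX17 ran through 0.901, 0.678, 0.800, 2.77, 3.67 and 9.30 RPM, and was 13.4 in XEN cells. GATA6 was 0.327, 0.920, 0.582, 0.986, 0.813 and 1.02 RPM, and 2.40 in XEN cells. The region is a GATA6 peak in which GATA6 stayed near 1 RPM or below through day 4.

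The second ratio, 8.21 (6.05 to 11.5), was found 17.2 kb from Snx11 (chr11:96760149-96760457), where SOX17 was 1.84, 0.850, 3.55, 11.2, 16.2 and 13.01 RPM, and 6.67 in XEN cells. The third, 6.66 (4.32 to 10.5), lay in an intron of Tspan14 (chr14:40956295-40956530), with 1.19, 0.977, 1.25, 3.23, 2.84 and 5.78 RPM of SOX17, and 7.10 in XEN cells. All 3 were accessible in ES cells, carried marks of active enhancers and were bound by pluripotency factors before induction, and none had a GATA6 motif of the high or mid class. Of the 10 members with the highest ratio, 4 were closed, 3 moderately accessible and 3 accessible.

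Among these 10, an intron of Wwp2 (chr8:107476720-107477241) differed in its course. SOX17 was 2.34, 1.998, 6.50, 18.1, 22.4 and 8.83 RPM, and 0.993 in XEN cells. OCT4 was 4.13, 2.24, 8.25, 13.8, 12.7 and 15.1 RPM, and 0.3999 in XEN cells. SOX17 was past its maximum at day 4 and OCT4 was not.

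Over all members, the median SOX17 signal was under 1 RPM until 16 h and rose from day 1. The medians over the 6 times were 0.790, 0.649, 0.850, 2.52, 3.96 and 7.88 RPM. In shared regions the medians were 1.00, 0.947, 1.15, 3.11, 4.16 and 6.96 RPM, and over all regions 0.545, 0.544, 0.550, 0.888, 0.947 and 1.10 RPM. In RPM per region, members were thus below the shared regions in SOX17 at each time before day 4, the time the rule used. Members were also narrower, with a median of 522 bases against 931, and the order per kb was not compared at these earlier times. Day 1 values were at least 2-fold above day 0, on the log2 scale with 0.172 RPM added, in 209 of 300 members (26.7% of all regions, 65.1% of shared regions). The count was 249 at day 2 (33.9% of all regions, 79.9% of shared regions). At day 4, the time the rule used, it was 295 (45.1% of all regions, 93.4% of shared regions).

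GATA6 set the members apart from 8 h on. Its medians were 0.490, 0.739, 0.872, 1.15, 1.49 and 2.55 RPM. Shared regions had 0.653, 2.26, 3.18, 3.58, 4.04 and 6.63 RPM, and all regions 0.490, 1.49, 1.45, 1.29, 1.13 and 1.29 RPM. After 8 h of Dox, 96 members (32.0%) had at least 2-fold the GATA6 of day 0 (61% of all regions, 62.2% of shared regions), at day 1 this held for 155 members (58.3% of all regions, 81.4% of shared regions), and on day 2 for 202 (53.2% and 87.4%). By these medians, GATA6 at members was below all regions at 8 h, 16 h and day 1 and above them from day 2. The order at days 1 and 2 turned with the processing: on day 1 members were above (1.45 against 1.29 RPM) with a SOX17 minimum of 6 RPM, and on day 2 they were below as a mean (1.92 against 2.06 RPM) and with regions of low highest signal left out (1.49 against 2.26 RPM). At day 4, 274 members (91.3%) had passed the 2-fold level (57.9% of all regions, 99.1% of shared regions). From day 2 to day 4, SOX17 rose at least 2-fold at 148 members (49.3%, against 19.5% of all and 42.1% of shared regions). It was as much lower at 5 (11.4% of all and 1.53% of shared regions). GATA6 rose at 114 (38.0%, against 18% and 35.9%). The shares of members were thus near those of shared regions. These counts lean on the day 4 values used to choose the members.

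Taking for each member the first time at which the signal was at least 2-fold over day 0, SOX17 did so after 16 h in 9 members, on day 1 in 200, on day 2 in 41, on day 4 in 47 and never in 3. Over all regions the shares were 0.264% after 16 h, 26.4% on day 1, 10.1% on day 2, 17.8% on day 4 and 45.5% never. For GATA6 the counts from 8 h to day 4 were 96, 50, 34, 35 and 67, with 18 at none of these times, and over all regions 61%, 11.3%, 4.86%, 3.09% and 9.95%, with 9.76% at none. SOX17 arrival was therefore gathered on 1 time point, as in shared regions, where 64.3% passed at day 1, whereas GATA6 arrival was spread over all of them, with 62.2% of shared regions at 8 h. The day 0 GATA6 column comes from a single library of 6122874 reads, and a fold over it at a weak region rests on a few reads.

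**Figure D2:**
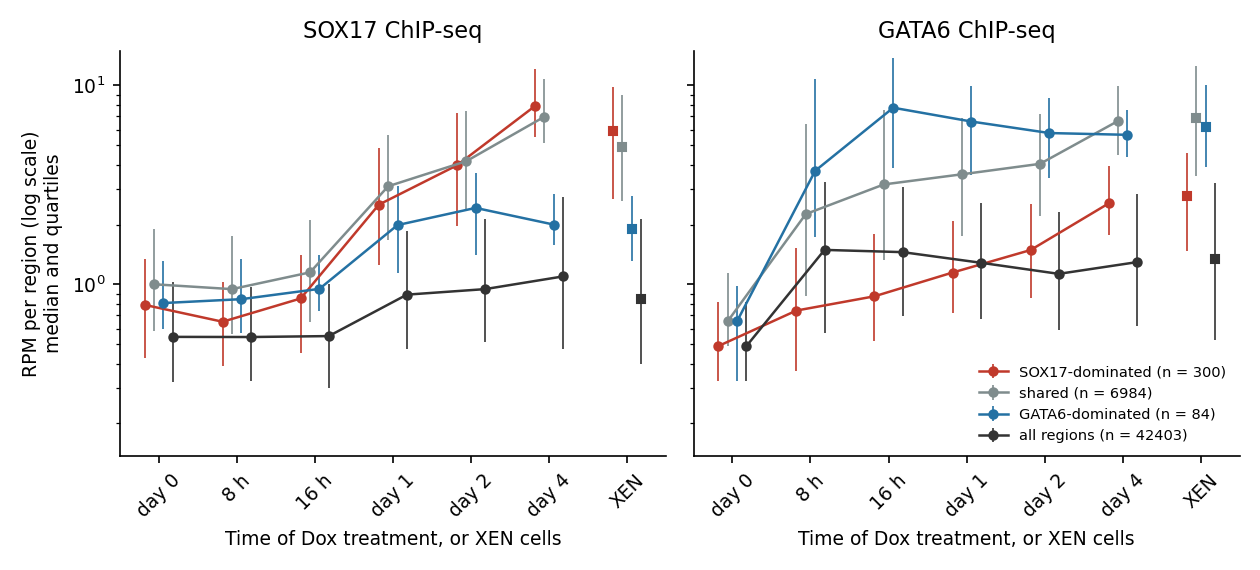
Median SOX17 (left) and GATA6 (right) ChIP-seq signal per region in RPM on a log axis, by time of Dox and in XEN cells, for SOX17-dominated, shared, GATA6-dominated and all regions. Bars are the quartiles over regions, not replicate error. SOX17 medians of members and shared regions run close together, from 0.790 and 1.00 RPM at day 0 to 7.88 and 6.96 at day 4, while the GATA6 medians are 0.739 and 2.26 RPM at 8 h and 2.55 and 6.63 at day 4.

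The ratio was high at days 1 and 2 as well, times that the rule did not use. Its median over members was 2.14 at day 1 and 2.54 at day 2, against 0.896 and 1.05 in shared regions. At day 1, 99 members had a ratio of at least 2.5 (0.887% of all regions), and at day 2, 154 (1.82%). Both parts of the rule were met by 46 members at day 1 (0.245%) and by 106 at day 2 (0.715%). At day 0, before induction, 93 members had a ratio of at least 2.5 (18.6% of all regions, 24.1% of shared regions). The medians over all members were then 0.790 RPM of SOX17 and 0.490 RPM of GATA6, and the highest SOX17 value was 8.29 RPM. The reads behind these 93 ratios were not counted. At 8 h and 16 h the counts were 11 (0.939%) and 4 (0.215%). The median ratio of members was under 1 at both times, at 0.836 and 0.859, against 0.417 and 0.368 in shared regions.

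In XEN cells, which the rule did not use either, the median ratio of members was 1.89 against 0.726 in shared regions and 0.704 over all regions. A ratio of 2.5 or more was found at 77 members (0.908% of all regions) and both parts of the rule at 59 (0.189%). Those 59 made up most of the 80 regions of the whole table that met the rule in XEN cells. The median SOX17 signal of members was 5.91 RPM in XEN cells and ranged from 0.198 to 50.5, and the median GATA6 signal was 2.78 RPM. SOX17 was at least 2-fold lower in XEN cells than at day 4 at 95 members (17.4% of all regions, 32.7% of shared regions) and at least 2-fold higher at 7 (6.49%). Since high day 4 values chose the members, a lower value in any other column is built into this count. GATA6 was at least 2-fold lower at 52 members (12.2%) and higher at 27 (14.8%), with a median log2 difference of 0.03.

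The members differed in their sequence from the shared regions in ways that the rule did not use. The authors graded the best match of each region to the motifs of GATA6 and SOX17 as high, mid, low or none. A SOX17 motif of the high or mid class was present in 237 members (79.0%), against 67.3% of shared and 42.6% of all regions, and a GATA6 motif of these classes in 62 members (20.7%), against 66.8% of shared and 59.8% of all regions. In 107 members no GATA6 motif at all was listed, which is 35.7% of members and 5.47% of shared regions. Put together, 186 members (62.0%) had a SOX17 motif and no GATA6 motif of the high or mid class, 51 had both, 11 had GATA6 alone and 52 neither. Among shared regions, SOX17 alone accounted for 20.9% and both for 46.3%.

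**Figure D3:**
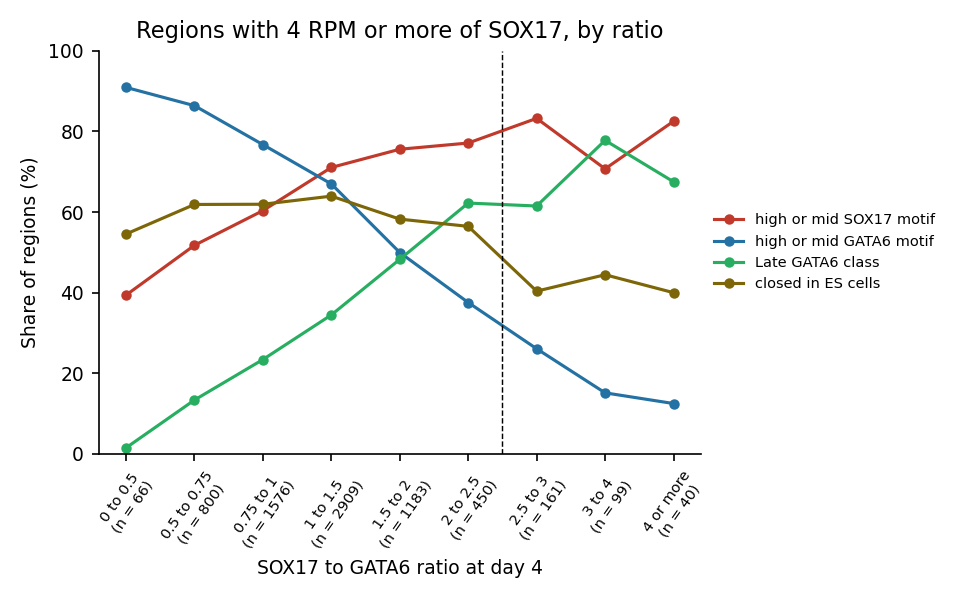
Share of regions in percent with a high or mid SOX17 motif, a high or mid GATA6 motif, the Late GATA6 class and the closed class of ES cells, in bins of the SOX17 to GATA6 ratio at day 4, over the regions with at least 4 RPM of SOX17. The dashed line is the ratio of 2.5. From the lowest to the highest bin, the share with a GATA6 motif falls from 90.9% to 12.5% and the share with a SOX17 motif goes from 39.4% to 82.5%.

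These shares changed gradually along the ratio rather than at the threshold. In the bin just below it (ratio 2 to 2.5, 450 regions), 77.1% had a SOX17 motif and 37.6% a GATA6 motif, and in the bin just above it (161 members), 83.2% and 26.1%. At ratios of 4 or more (40 members) the GATA6 motif was down to 12.5%. The share of SOX17 motifs was not monotonic above the threshold, with 70.7% in the 99 members of ratio 3 to 4. Region width fell along the same bins, from a median of 1112.5 bases at ratios under 0.5 to 387 at ratios of 4 or more, and a narrower region holds fewer motifs by its length alone.

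The letters ATTGT were also counted on both strands, without the authors' motif grades. Members had 5.18 matches per kb, shared regions 2.65, GATA6-dominated regions 1.28 and all regions 2.46. Over the central 300 bases, which gives each region the same length, 91.3% of members, 64.6% of shared regions, 26.2% of GATA6-dominated regions and 54.0% of all regions held at least 1 match. At least 2 matches were found in 62.3% of members, 28.8% of shared regions and 20.7% of all regions. GC content was alike, with medians of 46.7% in members, 45.5% in shared regions and 45.2% over all regions. A match is a description of the letters and not a bound site.

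The position of the motifs relative to the GATA6 summit, the point of highest GATA6 signal in a region, was reversed between both factors. In members, the best SOX17 motif lay at a median of 46 bases from the GATA6 summit, and the best GATA6 motif, in the 193 members with one, at 105 bases. In shared regions these distances were 142 and 80 bases, and over all regions 106 and 51 bases. Within 50 bases of the summit lay 53.4% of the SOX17 motifs of members and 26.5% of those of shared regions, and 26.9% and 39.0% of the GATA6 motifs. The GATA6 signal of members was thus highest close to a SOX17 motif. Width differed between members and shared regions, with medians of 522 and 931 bases, and was 525 bases over all regions. Its part in these distances was not tested.

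**Figure D4:**
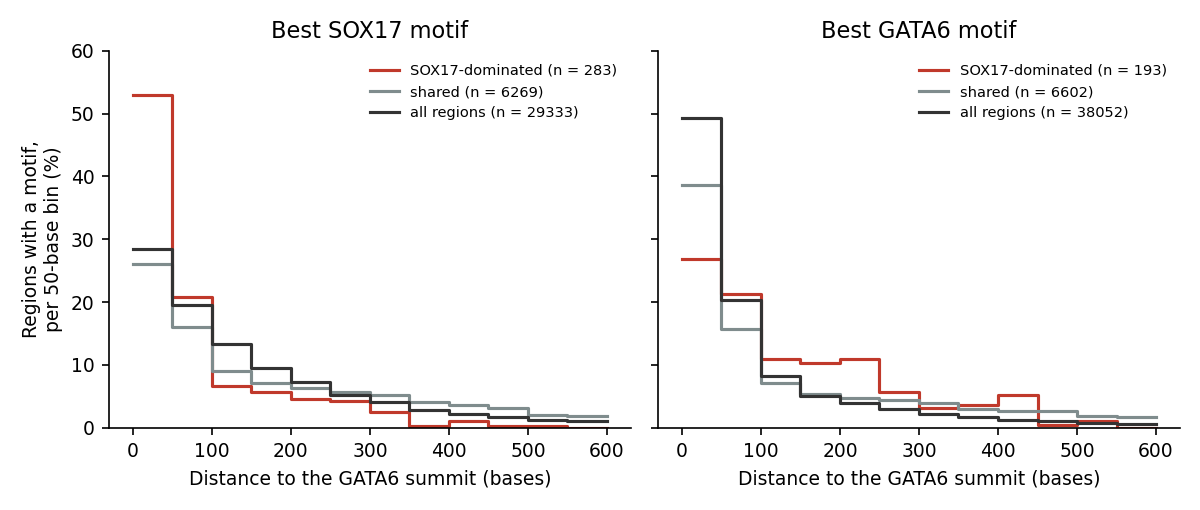
Distance in bases from the GATA6 summit to the best SOX17 motif (left) and to the best GATA6 motif (right), as the percentage of regions with such a motif in each 50-base bin, for SOX17-dominated, shared and all regions. The first bin holds 53.0% of the SOX17 motifs of members against 28.5% over all regions, and 26.9% of their GATA6 motifs against 49.3%.

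Exact composite elements of OCT4 with a SOX factor were found in few members. A pair of arrangements was searched on both strands: the compressed element, in which ATTGT is directly followed by ATGCAAA, and the canonical element, in which 1 further base stands between both. The compressed element was found in 2 of 300 members (0.667%), in 5 of 6984 shared regions (0.0716%) and in 0.0495% of all regions. With at most 1 mismatch the shares were 3.33%, 1.35% and 0.797%. The canonical element was found in no member and in 24 of all regions (0.0566%). With at most 1 mismatch its shares were 0.667%, 1.05% and 1.30%. The authors also graded an OCT:SOX motif. Its high or mid class was present in 33 members (11.0%, against 21.7% of shared and 20.3% of all regions). Any such motif was present in 212 members (70.7%, against 83.4% and 71.5%). The 2 members with the compressed element are shown because they are the exact matches. The capitals mark the element, and the sequences are from mm10, 5′ to 3′ on the strand that holds it.
Bmp2 neighbourhood (chr2:133723993-133724020, + strand): catttgctATTGTATGCAAAttcagtgc
Plxna1 neighbourhood (chr6:89288371-89288398, - strand): acggttcaATTGTATGCAAAtatatgca

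The first (chr2:133723636-133724548) is intergenic, 172 kb from Bmp2, a growth factor of the TGF-beta family. OCT4 there was 1.28, 0.675, 2.16, 4.82, 9.25 and 20.1 RPM, and 1.07 in XEN cells. SOX17 was 0.828, 0.850, 1.95, 7.55, 12.6 and 17.1 RPM, and 15.7 in XEN cells. SOX2 reached 4.97 RPM at day 4. The second (chr6:89287983-89288562) is 69.4 kb from Plxna1, a semaphorin receptor gene, with 4.30, 3.55, 5.96, 8.27, 8.01 and 7.46 RPM of OCT4, and 1.07 in XEN cells. Its SOX17 signal was 3.02, 3.22, 6.3997, 10.7, 13.03 and 5.41 RPM, and 0.696 in XEN cells. OCT4 was thus low in XEN cells in both, while SOX17 stayed near its day 4 level in the first alone.

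Over all members, OCT4 rose during induction, with medians of 0.727, 0.676, 0.654, 1.06, 1.36 and 1.83 RPM, and was 0.667 RPM in XEN cells, at least 2-fold under day 4 at 174 members (30.6% of all regions, 70.4% of shared regions). In shared regions it rose from 1.24 to 3.27 RPM. OCT4 at day 4 was at least 2-fold over day 0 at 150 members (20.8% of all regions, 60.3% of shared regions) and at least 2-fold lower at 3 (19.3%). SOX2 went from a median of 1.43 RPM to 2.37 at day 4, with 124 members at least 2-fold higher (24.7%) and 36 lower (24.6%). In XEN cells it was 0.908 RPM and at least 2-fold under day 4 at 205 members (27.5% of all regions, 73.5% of shared regions). The ESRRB median did not rise, at 0.668 RPM on day 0 and 0.528 on day 4. ESRRB was at least 2-fold lower at 70 members (23.3%), near the 24.9% of all and 21.6% of shared regions. It was as much higher at 2 (0.233% of all regions). The median input over members was 0.498, 0.434, 0.549, 0.550, 0.510 and 0.679 RPM over the 6 times and 0.707 RPM in XEN cells, so part of the low OCT4, SOX2 and ESRRB values is at the level of input.

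By the authors' classes of GATA6 dynamics, 203 members were Late (67.7%), 58 Early&Constant (19.3%) and 39 Transient (13.0%). Shared regions were 33.4% Late, 62.3% Early&Constant and 4.30% Transient, and all regions 33.6%, 28.0% and 38.4%. The Transient share of members was thus above that of shared regions and below that of all regions. These classes were drawn from GATA6 signal that includes day 4, so they are not independent of the rule. All 300 members were in the SOX17 peak class, as were 98.8% of shared regions.

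The accessibility of the sites in undifferentiated ES cells, which the rule did not use, was spread more evenly than in other regions. Of the members, 125 were closed (41.7%), 124 moderately accessible (41.3%) and 51 accessible (17.0%), against 61.7%, 30.4% and 7.93% of shared regions and 61.3%, 31.2% and 7.43% of all regions. Late and closed went together in 105 members, whereas 23 of the 39 Transient members were accessible and 1 was closed. Members of the closed class had a median of 0.370 RPM of GATA6 at 8 h and 2.45 at day 4, and those of the accessible class 1.98 and 2.72 RPM. SOX17 went from 0.407 RPM at day 0 over 1.56 at day 1 to 7.26 at day 4 in the closed class, and from 2.09 over 4.82 to 8.77 RPM in the accessible one. Both classes thus ended at like levels from different starting points, at the day that chose them.

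Pluripotency factors had a peak before induction at 100 members (33.3%, against 26.8% of shared and 20.8% of all regions), and 82 members (27.3%) gained one ectopically after induction, against 41.9% of shared and 16.6% of all regions. The remaining 118 (39.3%) had none, against 31.3% of shared and 62.6% of all regions. In the 100 bound before induction, the median SOX2 signal was 4.74 RPM at day 0 and 2.55 at day 4, and in the ectopic ones 0.989 and 2.83 RPM. SOX2 was thus lower at day 4 at the former and higher at the latter, and SOX17 reached medians of 8.61 and 9.43 RPM. By histone marks in ES cells, members were poised enhancers in 59 cases (19.7%, against 10.3% of shared and 14.6% of all regions), active enhancers in 58 (19.3%, against 13.7% and 11.2%), primed enhancers in 55 (18.3%, against 18.5% and 16.9%) and promoters in 25 (8.33%, against 9.89% and 6.88%). Constitutive heterochromatin accounted for 38 (12.7%, against 5.44% and 10.2%), naive chromatin for 36 (12%, against 23.3% and 17.996%) and facultative heterochromatin for 29 (9.67%, against 18.9% and 22.3%). Poised and active enhancers thus had a larger share of members than of shared or of all regions. Constitutive heterochromatin had a larger share of members than of shared regions. Its share of members was not clearly apart from that of all regions. The interval for counting error around 12.7% ran from 9.37% to 16.9% and included the 10.2% of all regions.

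In the genome the members were placed much like other regions. By GENCODE M21, 152 midpoints (50.7%) lay in introns of protein-coding genes, 118 (39.3%) between genes, 20 in introns of other genes, 6 in UTRs, 2 in coding sequence and 2 in exons of other genes. Intronic and intergenic shares of shared regions were 48.4% and 41.8%. A start lay within 1 kb of 20 members (6.67%, against 8.13% of shared regions), and the median distance was 23.0 kb. The 245 members within 100 kb of a start were nearest to 242 genes, with 2 members each for Agpat4, a lipid acyltransferase, Dnajb6, a chaperone, and Fscn1, an actin-bundling protein. No gene thus gathered more than 2 such sites, and each autosome and the X chromosome held at least 3.

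With Oct4 or control siRNA at day 2, a contrast that the rule did not use, SOX17 was higher in siOCT4 cells at most members. The median was 3.46 RPM in siCTL and 6.86 RPM in siOCT4 cells, and the median log2 difference was 1.02, against 0.82 in shared regions and 0.53 over all regions. SOX17 was at least 2-fold higher at 152 members (21.6% of all regions, 37.0% of shared regions) and at least 2-fold lower at none (0.479%). GATA6 had medians of 1.60 and 2.86 RPM and a median log2 difference of 0.55, against 0.26 in shared regions and -0.0039 over all regions. It was at least 2-fold higher at 89 members (8.12% of all regions, 12.9% of shared regions) and lower at 1 (5.58%). SOX17 was thus higher over the table as a whole as well, and more so at members, while the GATA6 difference was near 0 over the table. The amount of OCT4 left after the siRNA was not analysed here.

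The median ratio of SOX17 to GATA6 at members was 1.88 in siCTL and 2.43 in siOCT4 cells. In shared regions it was 0.600 and 0.888, and over all regions 0.529 and 0.813. The ratio was thus higher in siOCT4 cells over the table as a whole, not at members alone. It reached 2.5 at 81 (0.63% of all regions) and 136 members (2.64%). Both parts of the rule were met by 46 members in siCTL (0.165%) and by 117 in siOCT4 cells (0.458%). A few members went against the median. In the Wwp2 intron, where OCT4 was high, SOX17 was 17.0 RPM in siCTL and 9.86 in siOCT4 cells, and near Plxna1 it was 9.56 and 6.61 RPM. Near Bmp2 it was 10.5 and 15.3 RPM. The regions with the most SOX17 at day 4 had 15.8 and 21.4 RPM (Fbxl19), 25.8 and 42.0 RPM (Cdh26) and 31.2 and 45.2 RPM (Fth1), all higher in siOCT4 cells.

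After the values had been seen, the members were aligned with each other. By at least 100 aligned bases, 33 members fell into 8 groups of related sequence, and 267 were related to no other member. The largest group had 9 members on 6 chromosomes. Each of the 9 carried CATTGT at 2 positions 47 bases apart and in the same direction, and this stretch is printed here for 5 of them. The sequence they share is longer, with 182 to 294 bases aligned to the member in an intron of Lmbr1. The capitals mark CATTGT, and the sequences are from mm10, 5′ to 3′ on the strand given.
Chrna4 neighbourhood (chr2:181068148-181068222, + strand): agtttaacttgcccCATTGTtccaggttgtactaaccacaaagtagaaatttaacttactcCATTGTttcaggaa
intergenic, chromosome 8 (chr8:69323175-69323249, + strand): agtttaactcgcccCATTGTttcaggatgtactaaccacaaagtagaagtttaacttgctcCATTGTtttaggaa
Dnajb6 neighbourhood (chr5:29682499-29682573, - strand): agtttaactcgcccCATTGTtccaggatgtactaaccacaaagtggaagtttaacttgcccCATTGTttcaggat
Nrg4 intron (chr9:55236962-55237036, + strand): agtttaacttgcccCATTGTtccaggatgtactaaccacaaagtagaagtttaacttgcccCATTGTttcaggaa
Lmbr1 intron (chr5:29359514-29359588, + strand): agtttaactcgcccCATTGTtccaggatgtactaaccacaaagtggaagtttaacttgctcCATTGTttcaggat

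All 9 were closed in ES cells, 8 were Late and 1 Transient. Of the whole table, 13 regions aligned over 100 bases or more with the Lmbr1 intron member, the narrowest with 282 bases: the 9 members, 3 shared regions and 1 region under the SOX17 minimum. In the mm10 genome, 267 alignments reached the same 100 bases. With at least 90% of its length, 48 places aligned, at a median identity of 89.0%, and 13 of these overlapped a region of the table. That count uses a longer alignment than the count of regions before it. The sequence is thus repeated in the genome, and most of its copies were not GATA6 peaks. Reads that map to several places were removed by the authors' filter on mapping quality, which can lower the signal of copies that resemble each other, and its part in these values was not tested.

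SOX17 at these 9 was 6.19 to 25.9 RPM at day 4 and lower in XEN cells at each of them. The Chrna4 member (chr2:181067695-181068812) had 0.547, 0.530, 0.550, 6.34, 14.2 and 25.9 RPM of SOX17, and 3.62 in XEN cells. The Lmbr1 member (chr5:29359503-29359784) had 0.289, 0.425, 0.24999, 3.29, 6.31 and 6.37 RPM, and 0.198 in XEN cells. The Nrg4 member (chr9:55236754-55237365) had 0.378, 0.575, 0.350, 8.28, 12.4 and 17.3 RPM, and 7.98 in XEN cells, which left it the highest of the 9.

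SOX17 in XEN cells was 0.0306 to 0.462 of its day 4 value at the 9 members, with a median of 0.0522, and 0.25 or less at 8 of them. Among the 267 unrelated members the median was 0.736 and 42 were at 0.25 or less, and among the 24 related members of the other groups it was 0.552 and 6 were. GATA6 followed, with a median of 2.76 RPM at day 4 and 0.639 in XEN cells. Input at the 9 was 0.570 of its day 4 level in XEN cells by the median, against 1.09 at the unrelated members, but it ranged from 0.413 to 1.63 over the 9 and was above 1 at 2 of them, the Lmbr1 member (0.226 RPM at day 4 and 0.298 in XEN cells) and a member in an intron of Fam19a4 (chr6:96932555-96932931, 0.226 and 0.368 RPM). Its part in the difference was not tested. XEN cells are of another mouse strain, and whether all copies are present there was not tested. Of the 3 shared regions with the sequence, SOX17 went from 29.6 to 6.01 RPM and from 18.4 to 4.19 RPM in both with a long alignment, and from 28.8 to 18.01 RPM in the one with 123 aligned bases.

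**Figure D5:**
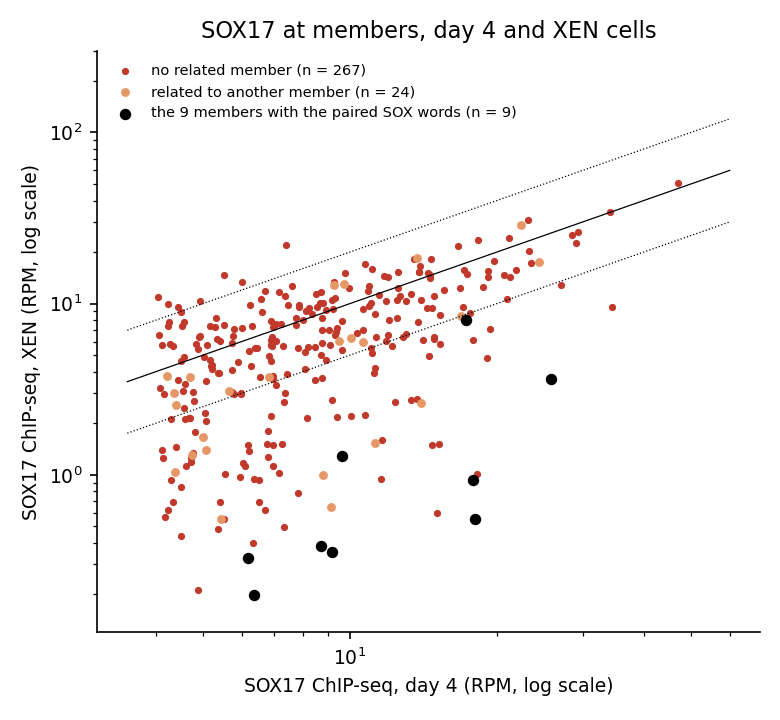
SOX17 ChIP-seq signal at the 300 members at day 4 and in XEN cells, in RPM on log axes. The solid line is equality and the dotted lines are a 2-fold difference either way. The 9 members with paired CATTGT (black) lie below the lower dotted line, at 0.0306 to 0.462 of their day 4 value.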

How the data were processed

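The authors removed adapters (cutadapt) and mapped reads on mm10 (bowtie2) (the submitters' processing notes also name SAMtools and bcl2fastq; versions are not given in the sources used here), removed reads of low mapping quality and duplicates by unique molecular identifiers, and called GATA6 peaks with MACS2. Reads on each region were counted with bamsignals and scaled by library size. The deposited unit is therefore RPM, with 1 value per condition in which its libraries are pooled. The authors scanned motifs with FIMO and deposited the score, place and class of the best match, and classes of binding, accessibility and histone marks. 45 RPM columns were used. Another 14 columns with values of single samples, on accessibility and histone marks, and the authors' own comparison of GATA6 binding between siRNAs were not used.

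Regions were selected on the day 4 values as given above. The members, the gene lists and the comparison groups were chosen with earlier results of these data known, and the search for sequence shared between members after seeing the data. Differences are log2(RPM + 0.172), the pseudocount being percentile 5 of all values, and a difference of 1 or more was counted. Library depth was read from the steps between low values. In 4 columns, values were whole multiples of 1 step in 100% of cases, within 0.05 reads. These were SOX17 at 16 h, ESRRB at 8 h, GATA6 at day 0 and OCT4 of the XEN line. A single step gives 1 depth, although more than 1 library is labelled for SOX17 at 16 h and for ESRRB at 8 h. How the libraries of these columns were pooled is not clear. No region was without signal in any RPM column, and the lowest GATA6 value at day 0, 0.163 RPM, was 1 step. Whether the deposited values hold an added read per library is not clear. Such a read would raise weak values and the effective reads. No count test was run, since each condition has 1 column. The 95% intervals of ratios are from effective reads and cover counting error only. Scripts were tested on simulated data. Genes were taken from GENCODE M21, sequences from the mm10 assembly, and alignments from BLAST+ 2.17.0, with Python 3.11.15, numpy 2.4.6, pandas 2.3.3, scipy 1.17.1, pysam 0.24.0, networkx 3.6.1 and matplotlib 3.10.9.

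The rule for regions to name took the 10 with the highest SOX17 at day 4, the 10 with the highest ratio, up to 5 on each side of each threshold, and members near a listed gene. Of these the text describes a part, with 1 on each side of each threshold. The Bmp2, Plxna1 and shared-sequence regions were singled out after their values were seen. A gene list and a region are not reported here. Alternatives were other minimums and ratios, means, signal per kb or minus input, other pseudocounts, a filter on low signal, other motif classes, and exact against inexact composites. Members whose counting interval stays above the ratio, and members without shared sequence, were alternatives added after seeing the data.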

Additional observations from a re-analysis of the deposited data

How the results depend on the processing

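No paired analysis was possible because the libraries of a condition share a column, and for the same reason no replicate could be left out. The number of members, 300, was 750 at a ratio of 2, 139 at a ratio of 3, 503 with day 4 input subtracted, 80 with a pseudocount of 10 times the 5th percentile and 99 with the lower counting bound at 2.5 or more, the last chosen after seeing the data. The median ratio at day 2, 2.54, was 2.73 as a mean, 3.30 with input subtracted and 2.88 at a ratio of 3, and in XEN cells, 1.89, it was 2.09, 2.32 and 2.35. The siRNA difference of SOX17, 1.02 on the log2 scale, was 1.11 with input subtracted, 0.86 at a ratio of 3 and 0.76 with the pseudocount 10 times larger, and that of GATA6, 0.55, was 0.65 as a mean, 0.74 with input subtracted and 0.32 with the larger pseudocount. For both siRNAs, the input subtracted was the day 2 input of cells without siRNA, as the siRNA inputs have no RPM column. A difference in input between the siRNAs was therefore not tested. The Late share was 74.8% at a ratio of 3 and the closed share 50.5% at a ratio of 2. A SOX17 motif was present in 44.3% of members counting the high class and 94.3% counting any motif, and a GATA6 motif in 4.67% and 64.3%, in 30.8% at a ratio of 2 and in 14.4% at a ratio of 3. The compressed composite was in 3.33% with 1 mismatch.

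Of the 352 values under alternatives, a turn of direction could be scored only for log2 differences and shares. Signal medians, ratios and numbers of members or genes were not scored for it. Direction turned in 3 values, belonging to GATA6 in XEN cells and to the Transient share. GATA6 in XEN cells against day 4, with a median of 0.03, was -0.081 as a mean and -0.0053 with a SOX17 minimum of 6 RPM, and the Transient share of 13.0% was below that of all regions but above that of shared regions. Of 30 signal medians, the number that changed sides of the value over all regions was 13 with regions of low highest signal left out, 4 with a SOX17 minimum of 6 RPM, 4 as means, 3 with input subtracted, 3 per kb and 1 at a ratio of 3, GATA6 at days 1 and 2 among them. The cause was not tested. Depth limits the GATA6 values of the weakest members, at 22.3 effective reads.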
